A study of Mus musculus with 23 samples.

Results

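The 26 genes described here encode the enzymes of cholesterol synthesis and the machinery that controls them through SREBP2, and they were followed through accessible chromatin in mouse monocytes and macrophages. ATAC-seq, an assay whose transposase inserts adapters into open DNA, was run on 23 libraries of 11 groups. Peaks of all libraries that overlapped were merged into regions. A region was given to a member gene where that gene was the nearest protein-coding gene, inside its body or within 50 kb. This gave 153 regions of 155137 in all, for 26 genes of 21627 protein-coding genes in the annotation. The value of a region in a library is its normalised tag count, the number of tags in its strongest peak scaled to 10 M tags per library.

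Blood monocytes with high Ly6C came from untreated C57BL/6J mice (2 libraries). Repopulating liver macrophages were taken 24 h (3 libraries) and 48 h (2 libraries) after diphtheria toxin, and Kupffer cells after PBS (2 libraries). The mice of these 3 groups were all Clec4f-cre/Rosa26iDTR, in which Cre from the Kupffer cell gene Clec4f switches on the toxin receptor, so that the toxin removes resident Kupffer cells. Nr1h3 flox/flox mice gave TIM4+ control cells, titled Clec negative. Nr1h3 flox/flox Clec4f-cre +/- mice gave TIM4+ and TIM4- knockout cells, titled Clec positive (2 libraries per group). No TIM4- control was among these groups, so the TIM4- knockout cells were set against TIM4+ controls and differ from them in TIM4 as well as genotype. Kupffer cells titled Smad4KO carry the strain label Smad4 flox/flox, and those titled Control carry Smad4 flox/flox Clec4f-cre +/- (2 libraries each). Titles and strain labels therefore name opposite genotypes. The titles are followed, and each direction would flip under the strain labels. Bone marrow derived macrophages (BMDM) of C57BL/6J mice, 4 days in culture, were untreated or given the Notch ligand DLL4 for 24 h (2 libraries each). Ages are not given. Titles number a separate mouse for each blood, 24 h, 48 h and PBS Kupffer library. For the Nr1h3, Smad4 and BMDM groups the labels do not say whether replicates came from separate animals or cultures. The p-values measure the spread between libraries, which in those groups may be technical.

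Cholesterol is built from acetyl-CoA through mevalonate, isoprenoid units, squalene and lanosterol, and the enzymes of these steps are transcribed together under SREBP2, the product of Srebf2. SREBP2 is held in the endoplasmic reticulum by SCAP and the INSIG proteins when sterols are plentiful; when they are scarce, SCAP carries it to the Golgi, where proteases free its transcription factor domain. Macrophages take up much of their cholesterol by engulfing cells and lipoproteins. They sense surplus through oxysterols and desmosterol, which activate LXR-alpha, the product of Nr1h3, a regulator of cholesterol export and a factor that Kupffer cells need.

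The DNA before the gene starts is printed for 8 members whose start or distal regions carry the comparisons that follow: Hmgcs1 (chr13:119690101-119690350, plus strand), Lss (chr10:76531355-76531604, plus), Cyp51 (chr5:4104698-4104947, minus), Msmo1 (chr8:64733579-64733828, minus), Nsdhl (chrX:72918271-72918520, plus), Hsd17b7 (chr1:169969206-169969455, minus), Insig1 (chr5:28071162-28071411, plus) and Soat1 (chr1:156474329-156474578, minus). Each run holds the 250 bases before the start, 5′ to 3′ on the gene's strand, from RefSeq on GRCm38.p6, the assembly behind mm10. Capitals mark CCAAT, the box bound by NF-Y, a partner of SREBP2, on either strand (ATTGG on the other), and in Hmgcs1 also TCACNCCAC, the core letters of the sterol regulatory element.
Hmgcs1: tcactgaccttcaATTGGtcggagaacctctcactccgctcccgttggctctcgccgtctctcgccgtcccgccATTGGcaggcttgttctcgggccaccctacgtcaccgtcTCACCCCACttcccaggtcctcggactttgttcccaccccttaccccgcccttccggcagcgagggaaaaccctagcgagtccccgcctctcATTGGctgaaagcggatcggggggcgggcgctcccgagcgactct
Lss: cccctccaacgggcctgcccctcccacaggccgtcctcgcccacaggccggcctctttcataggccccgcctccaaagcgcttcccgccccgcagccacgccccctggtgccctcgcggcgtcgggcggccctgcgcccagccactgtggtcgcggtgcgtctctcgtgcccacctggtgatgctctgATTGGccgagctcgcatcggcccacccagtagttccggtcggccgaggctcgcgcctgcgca
Cyp51: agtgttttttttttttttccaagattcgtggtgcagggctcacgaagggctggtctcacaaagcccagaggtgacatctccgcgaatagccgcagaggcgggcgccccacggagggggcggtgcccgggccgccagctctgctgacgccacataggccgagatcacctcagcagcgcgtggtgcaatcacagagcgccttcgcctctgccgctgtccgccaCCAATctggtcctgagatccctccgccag
Msmo1: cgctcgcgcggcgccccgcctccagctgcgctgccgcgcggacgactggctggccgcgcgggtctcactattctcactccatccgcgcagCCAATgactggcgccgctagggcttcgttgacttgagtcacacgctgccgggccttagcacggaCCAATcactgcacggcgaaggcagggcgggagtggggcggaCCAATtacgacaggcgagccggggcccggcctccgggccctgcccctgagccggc
Nsdhl: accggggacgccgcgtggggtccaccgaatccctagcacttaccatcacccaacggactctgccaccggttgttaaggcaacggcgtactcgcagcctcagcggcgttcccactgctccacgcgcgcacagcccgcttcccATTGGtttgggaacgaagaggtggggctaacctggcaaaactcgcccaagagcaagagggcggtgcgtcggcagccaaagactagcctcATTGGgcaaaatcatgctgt
Hsd17b7: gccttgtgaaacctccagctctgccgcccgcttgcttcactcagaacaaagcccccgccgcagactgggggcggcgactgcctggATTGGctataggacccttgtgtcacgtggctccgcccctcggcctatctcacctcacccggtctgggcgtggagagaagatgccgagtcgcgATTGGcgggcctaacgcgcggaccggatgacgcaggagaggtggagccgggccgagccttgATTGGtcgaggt
Insig1: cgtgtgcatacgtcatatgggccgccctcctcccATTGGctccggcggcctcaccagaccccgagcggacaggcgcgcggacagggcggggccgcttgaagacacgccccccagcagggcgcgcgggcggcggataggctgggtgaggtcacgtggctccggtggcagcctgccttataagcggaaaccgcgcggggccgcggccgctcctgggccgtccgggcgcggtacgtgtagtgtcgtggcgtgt
Soat1: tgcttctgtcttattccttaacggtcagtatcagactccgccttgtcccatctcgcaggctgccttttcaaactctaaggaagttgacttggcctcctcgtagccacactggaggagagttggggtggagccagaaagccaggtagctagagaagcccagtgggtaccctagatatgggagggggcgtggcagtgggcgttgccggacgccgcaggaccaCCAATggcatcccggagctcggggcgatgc

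The letters differ between the printed runs in what they share. Hmgcs1, Msmo1 and Hsd17b7 each held 3 NF-Y boxes, Nsdhl held 2, and Lss, Cyp51, Insig1 and Soat1 held 1. The sterol element match of Hmgcs1 began 137 bases before the start. Promoter windows of 300 bases (250 before to 50 after the start) were present for 22 of the 26 members. The NF-Y box, on either strand, was found for 19 of these 22 (86.4%), against 42.7% of 17273 genes with a window. Among windows that overlapped a region with a peak in all 23 libraries, 16 of 22 member windows (72.7%) and 41.0% of 8808 windows held the NF-Y box. GGGCGG, an Sp factor box (both strands), was found in 21 of the 22 open member windows and in 71.0% of the 8808. The sterol element letters were found on either strand for 1 member with a window, Hmgcs1, and for 1.42% of genes. Member windows had a median GC content of 60.8%, against 56.7% for all windows. These matches are descriptions of letters in the windows and not measured binding.

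The libraries held 10.4 to 18.4 M tags, of which 15.4% to 54.7% lay in peaks, and 48775 to 104206 peaks each. The share of tags in peaks was 15.4% to 25.2% in the Smad4 libraries and 48.3% to 54.7% in BMDM, so levels are tested within an experiment and not between them. Where values of different experiments are set side by side they are descriptions, and normalised tag counts are not centred. Start regions of 8 hepatocyte genes had no peak in any library. Other lists were not empty. Per library, 1 to 3 of 6 liver endothelial genes, 1 to 2 of 6 stellate genes and 0 to 3 of 6 neutrophil genes had a start peak. The dendritic gene Flt3 had 215.7 and 300.9 in blood. What these peaks say of other cells in the samples was not tested. Of 9 Kupffer cell genes, start regions with a peak numbered 0 in blood and at 24 h, 1 to 2 at 48 h, 5 to 6 in Kupffer cells and Nr1h3 controls, 5 in TIM4- knockouts, where Timd4 had none, and 4 to 6 in TIM4+ knockouts. Of 8 monocyte genes they numbered 5 in blood, 3 at 24 h and at 48 h, and 0 to 2 in Kupffer cells. Untreated BMDM had start peaks at 4 of the 9 Kupffer cell genes and at 5 to 6 of the 8 monocyte genes. Nr1h3 itself had a peak at its start in every library, with 141.1 and 93.1 in controls, 111.7 and 125.6 in TIM4+ knockouts and 144.9 and 202.1 in TIM4- knockouts. A region inside Nr1h3 (chr2:91189796-91190011) had a peak in all 4 Nr1h3 knockout libraries and in none of the other 19. The start of Smad4 had 55.8 and 54.6 in libraries titled Smad4KO and 55.1 and 75.4 in those titled Control. The start of a floxed gene need not lie in the deleted part, so these values do not check the deletions.

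Most members were open at the start in every library and differed in how many regions lay elsewhere. A region over the start was found for 23 of 26 members, all but Fdft1, Pmvk and Lpin1, and 22 of these had a peak in all 23 libraries. For Sqle, Fdft1, Fdps and Stard4 no start window was listed and only the gene ends were searched. The window listed for Lpin1 (chr12:16610917-16611216, minus strand) lay inside the gene body, which runs to 16653903. The far end of Lpin1 was thus not searched for a start region. A region inside Fdft1, at chr14:63177839, had a peak in all 23 libraries. Ebp, the sterol isomerase, was the exception, with a start peak in 6 libraries. Another Ebp region, inside the gene at chrX:8192810, had a peak in all 23. Of the 153 member regions, 44 (28.8%) had a peak in all libraries, against 17.2% of all regions, and 21 (13.7%) had a peak in 1 library, against 16.7%. Member genes had a median of 4 regions, as did all genes. Lpin1, the phosphatidate phosphatase lipin 1, had 22 regions, the acyltransferase gene Soat1 14 and Insig1 12. Hmgcs1, Nsdhl and Hsd17b7 had 1 each, at the start. Kupffer cells had peaks in 59 to 64 member regions, blood monocytes in 80 to 86, cells at 24 h in 71 to 80 and at 48 h in 76 to 90, and untreated BMDM in 106 to 118. These counts move with how many regions a library has. Of all regions with a peak, members made up 0.09598% to 0.09936% in Kupffer cells and 0.1214% to 0.1224% in blood. The share was 0.1043% to 0.1274% at 24 h, 0.1028% to 0.1084% at 48 h and 0.1146% to 0.1255% in untreated BMDM.

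Among the mevalonate genes, signal at the start was strongest at Hmgcs1, which makes HMG-CoA. Its normalised tag count was lowest at 205, had a median of 528 and reached 828 over the 23 libraries, and its mean stood above 99.8% of the 26618 regions open in all libraries. Ggps1, which makes geranylgeranyl diphosphate, ran from 164 to 571 (median 411), and Mvd, the mevalonate diphosphate decarboxylase, from 141 to 490 (median 293). Idi1, the isopentenyl diphosphate isomerase, had a median of 242, Fdps, the farnesyl diphosphate synthase, 217, and Mvk, mevalonate kinase, 217. Acat2, the cytosolic thiolase, was lowest in this group with a median of 127. The start windows of Mvk, Nsdhl, Hsd17b7 and Ggps1 are shared with the divergent neighbours Mmab, Cetn2, 3110045C21Rik and Arid4b, and signal there cannot be assigned to either gene.

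Of the genes after squalene, Msmo1, the C4 methyl oxidase, carried more start signal than any other member, from 218 to 919 (median 648), above 99.9% of regions open in all libraries. Hsd17b7, the 3-ketosteroid reductase, ran from 96.4 to 683 (median 455), and Sqle, the squalene epoxidase, from 155 to 560 (median 341). Medians were 291 for Dhcr7, the last reductase, 266 for Lss, which closes the lanosterol rings, and 224 for Sc5d, a desaturase. Cyp51, the lanosterol 14-demethylase, had a median of 166, Nsdhl, the C4 decarboxylase, 164, and Tm7sf2, a sterol C14 reductase, 90.8. Of the regulators, Insig1 had a median of 426, Srebf2 272, Insig2 162 and Scap 79.2. Stard4, a sterol carrier, had 449 and Soat1, which esterifies cholesterol for storage, 79.5. Each value comes from a peak of 200 bp, so genes are compared over the same length.

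**Figure D1:**
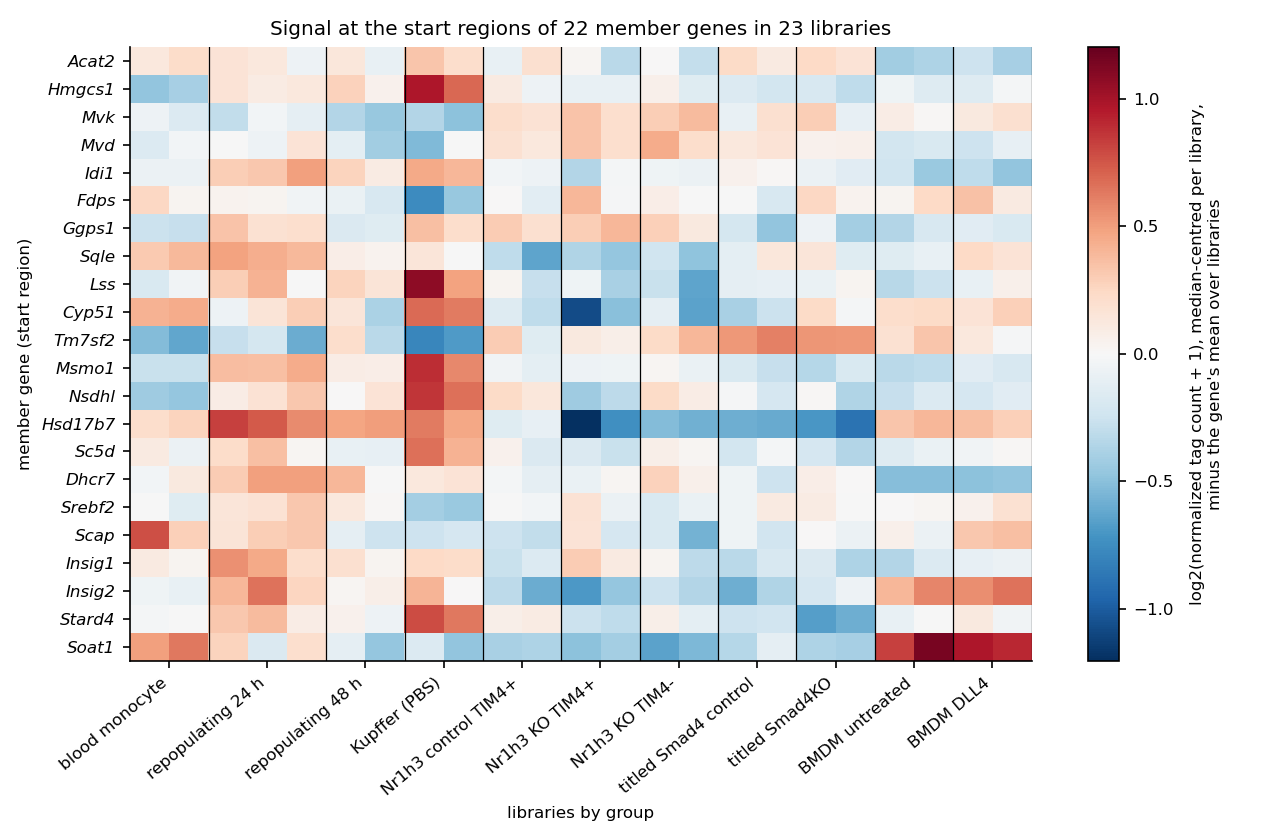
Signal at the start regions of 22 member genes (rows) in 23 libraries (columns, by group), as log2(normalised tag count + 1) centred on each library's median and shown as the difference from the gene's mean. Hmgcs1, Msmo1, Nsdhl and Lss are high in the 2 libraries of Kupffer cells given PBS. Hsd17b7 is low in the Nr1h3 knockout and Smad4 libraries, and Soat1 is high in the 4 BMDM libraries.

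After centring each library on its median, Srebf2 varied least of the 22 start regions. Its SD over the 23 libraries was 0.18 on the log2 scale, at the 1.37 percentile of regions open in all libraries. Hsd17b7 varied most (SD 0.60, percentile 81.1), followed by Soat1 (0.56, percentile 76.2). Over 231 pairs of start regions, the correlation of centred log2 signal across the 23 libraries ran from -0.76 to 0.89, with a median of 0.19. Hmgcs1 was most like Msmo1 and Nsdhl (0.88 each), and Sc5d was most like Stard4 (0.89). Hmgcs1 and Fdps had the lowest value (-0.76). These correlations are descriptions, since libraries of a group share their cells and depth.

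Kupffer cells given PBS differed from blood monocytes at 31 of 47 member regions, in both directions. The starts of Hmgcs1, Nsdhl, Msmo1 and Lss and a distal Insig1 region were higher. Inner regions of Lpin1, Mvd and Srebf2 were lower. Regions with a peak in all 4 libraries were tested on log2(normalised tag count + 1), centred on the library median, with limma and Benjamini-Hochberg adjusted p below 0.05 over all regions tested. A fold change here is measured from the median region. Of the 47, 18 were higher in Kupffer cells and 13 lower, in 22 genes, and 16 did not pass. Of all regions tested, 25.7% were higher and 25.3% lower, and the median log2 fold change was 0.06 for member regions and -0.00 for all. Before centring, the median region stood at -0.39, and without centring 5 member regions were higher and 16 lower. The monocyte and Kupffer marker counts given above moved with this comparison, and their part in it was not tested. In bulk samples, fewer cells of a type and less open chromatin per cell cannot be told apart.

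Of the start regions, Hmgcs1 rose most. Its normalised tag count was 828.4 and 789.0 in the Kupffer libraries and 367.1 and 501.1 in blood, so that both Kupffer libraries lay above both blood libraries. The log2 fold change was 1.30 ± 0.14 (SE, adjusted p = 1.8e-12), and 0.91 without centring (adjusted p = 0.0063). The start of Nsdhl had 217.1 and 218.6 against 106.6 and 135.3 (1.25 ± 0.17, adjusted p = 4e-09). At the Msmo1 start the values were 919.4 and 860.9 against 498.1 and 643.5 (1.04 ± 0.14, adjusted p = 1.8e-09), and the change without centring was 0.65 (adjusted p = 0.057). The Lss start had 460.7 and 352.8 against 231.2 and 332.0 (0.93), and without centring 0.54 (adjusted p = 0.13). The Stard4 start had 569.7 and 594.4 against 394.8 and 518.0 (0.75), and without centring 0.36 (adjusted p = 0.32). All of these groups were separated in their libraries, while the call at Msmo1, Lss and Stard4 needed the centring. Control cells of other experiments differed from those given PBS. Centred log2 signal at Lss was 2.97 and 2.38 with PBS and 1.71 and 1.86 in blood. It was 1.93 and 1.62 in Nr1h3 controls and 1.79 and 1.80 in cells titled Control. At Hmgcs1, PBS gave 3.82 and 3.54, Nr1h3 controls 2.96 and 2.79, cells titled Control 2.68 and 2.63, and blood 2.37 and 2.45. In the same order, Nsdhl had 1.89 and 1.69, 1.26 and 1.17, 1.02 and 0.82, and 0.60 and 0.57. Msmo1 had 3.97 and 3.66, 3.03 and 2.96, 2.89 and 2.81, and 2.81 and 2.81. Stard4 had 3.28 and 3.13, 2.57 and 2.60, 2.25 and 2.27, and 2.48 and 2.50. At Stard4, cells titled Control thus lay below blood. The cause was not tested.

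Other starts fell. The Fdps start had 103.3 and 147.6 in Kupffer cells given PBS against 251.5 and 279.8 in blood (-0.70, adjusted p = 0.00027). Its centred log2 signal was 0.83 and 1.13 with PBS and 1.83 and 1.61 in blood. Nr1h3 controls had 1.59 and 1.46, and cells titled Control 1.58 and 1.39. The Soat1 start had 74.9 and 70.0 against 143.3 and 204.4 (-0.84, adjusted p = 0.00016). The Scap start had 55.9 and 67.1 against 138.4 and 127.6 (-0.71, adjusted p = 0.0028). In all 3 genes the Kupffer libraries lay below both blood libraries, and the change was past the threshold without centring too. At the Hsd17b7 start, 455.0 and 472.6 lay between 414.3 and 557.5, the groups overlapped, and the call (0.34, adjusted p = 0.036) turned to -0.05 without centring. Start regions of Sqle (-0.24), Mvk (-0.27), Dhcr7, Acat2, Insig1, Insig2, Cyp51, Mvd, Tm7sf2 and Srebf2 did not pass. Of the 22 start regions, 9 (40.9%) were higher and 3 (13.6%) lower, against 22.8% and 29.9% of all tested regions over a promoter window. Without centring it was 2 and 4.

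**Figure D2:**
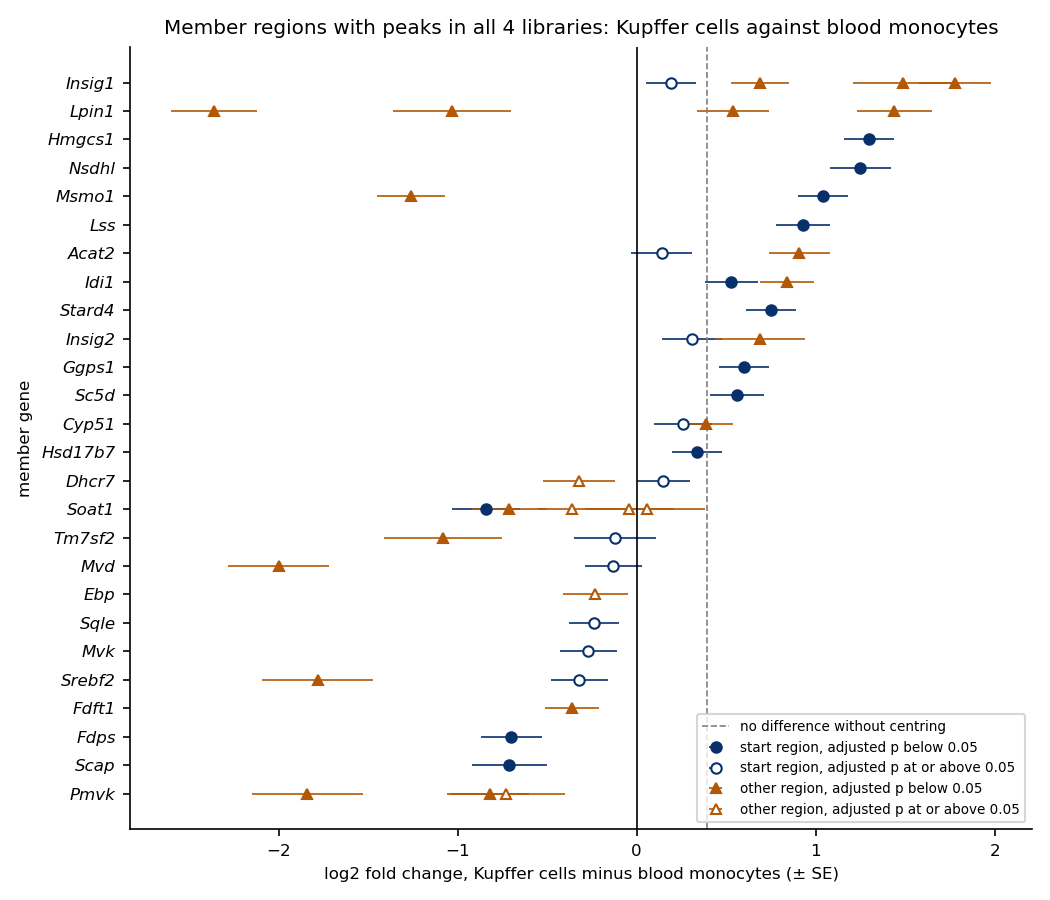
Log2 fold change ± SE, Kupffer cells minus blood monocytes, of the 47 member regions with a peak in all 4 libraries, by gene. Circles are start regions, triangles other regions, filled symbols have an adjusted p below 0.05, and the dashed line marks where no difference would stand without centring; Insig1, Lpin1 and Hmgcs1 hold the highest values and Lpin1, Mvd, Pmvk and Srebf2 the lowest.

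Larger changes lay away from the starts, inside or near the same genes. A region about 34 kb before the Insig1 start (chr5:28037179-28037592) had 151.7 and 162.0 in Kupffer cells against 52.1 and 67.0 in blood (1.78 ± 0.20, adjusted p = 6.9e-12), and 1.39 without centring. Its neighbour at chr5:28037626 had 60.7 and 70.0 against 21.2 and 42.3 (1.49). Inside Lpin1 2 regions moved in opposite directions: chr12:16583980-16584393 had 19.0 and 28.8 against 131.9 and 203.7 (-2.36 ± 0.24, adjusted p = 2.1e-13), and chr12:16591467-16591818 had 150.7 and 115.0 against 66.7 and 59.9 (1.44). Inside Mvd, chr8:122438004-122438295 had 14.2 and 24.0 against 88.7 and 115.6 (-2.00 ± 0.28, adjusted p = 7.5e-09). Inside Srebf2, 4899 bp after the start, chr15:82152010-82152326 had 20.9 and 12.5 against 60.2 and 97.3 (-1.78 ± 0.31, adjusted p = 1.5e-06). Inside Msmo1, chr8:64726450-64726727 had 75.8 and 57.5 against 180.7 and 241.7 (-1.26), while the start of the same gene was higher.

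By role, 13 regions of mevalonate and isoprenoid genes were tested, with 5 higher and 4 lower, beside the 25.7% and 25.3% of all regions. From squalene to lanosterol it was 1 and 1 of 3. Regions from lanosterol to cholesterol gave 5 higher and 2 lower of 12. SREBP2 and its regulators gave 4 higher, 3 of them at Insig1 and 1 at Insig2, and 2 lower of 9. Transport, storage and lipin regions gave 3 higher and 4 lower of 10. Of the 31 calls, 22 (13 higher, 9 lower) held without each library in turn, and 18 (5 higher, 13 lower) held without centring.

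Regions with a peak in every library of a group and none in the other are counted without a test. A missing peak means that none passed the peak caller's thresholds, and the other group can have a peak beside the region. Their background is the share among all regions with a peak in either group. In Kupffer cells alone 7 of 103 member regions had peaks, against 12.8% of 98561 regions, and in blood alone 25 of 103, against 15.9%. The Kupffer regions were led by one inside Dhcr7 (chr7:143832332-143832602; 45.5 and 69.0) and one 23635 bp after the Soat1 start (chr1:156450510-156450877; 44.5 and 56.6). The blood regions were led by one 9196 bp outside Lpin1 (chr12:16526198-16526473; 123.7 and 250.9) and one inside Mvd (chr8:122436734-122436960; 98.5 and 129.0). Lpin1 gave 6 of the 25 and Sc5d 5.

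Cells 24 h after toxin had higher signal than blood at the starts of Msmo1, Hmgcs1 and Nsdhl, relative to the median region, and lower signal at inner regions of Mvd, Srebf2 and Lpin1. This comparison uses the same 2 blood libraries as the one before. Of 59 member regions tested, 18 were higher at 24 h and 6 lower, against 16.7% and 9.33% of all regions tested. The median region stood at -0.27 before centring, and without centring 1 member region was higher and 7 lower. The Msmo1 start had 838.8, 800.8 and 774.8 at 24 h against 498.1 and 643.5 in blood (0.77 ± 0.08, adjusted p = 5.5e-08). The Hmgcs1 start had 618.8, 567.5 and 528.3 against 367.1 and 501.1 (0.68 ± 0.09, adjusted p = 3e-06), and the Nsdhl start 165.7, 168.9 and 170.7 against 106.6 and 135.3 (0.75). All 3 libraries at 24 h lay above both blood libraries at these genes. Without centring Msmo1 was at 0.51 (adjusted p = 0.1) and Hmgcs1 at 0.41 (adjusted p = 0.2). Of the 22 start regions, 12 were higher (54.6%) and 0 lower with limma, against 26.8% and 6.81% of all tested regions over a promoter window; 14 were higher and 0 lower at an unadjusted p below 0.05. Without centring 0 start regions passed in either direction.

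The regions that fell at 24 h lay away from starts. The Mvd region at chr8:122438004 had 31.8, 21.8 and 35.1 against 88.7 and 115.6 (-1.50 ± 0.27, adjusted p = 0.00011). The Srebf2 region at chr15:82152010 had 34.6, 17.3 and 19.9 against 60.2 and 97.3 (-1.43). The Lpin1 region at chr12:16583980 had 57.1, 51.8 and 49.3 against 131.9 and 203.7 (-1.35, adjusted p = 1e-05). The Msmo1 region at chr8:64726450 had 95.5, 93.5 and 105.3 against 180.7 and 241.7 (-0.82). These 4 were past the threshold without each library in turn and without centring. Lpin1 again held a region that rose, chr12:16591467 (126.4, 103.5 and 107.2 against 66.7 and 59.9; 1.08), the 1 higher call that held without centring. Of the 24 calls, 13 held without each library in turn, and without blood replicate 2 15 were kept. Of 105 member regions with a peak in either group, 1 had peaks at 24 h alone, against a background of 3.02%, and 7 in blood alone, against 4.49%. The 1 was an Insig1 region (24.3, 23.6 and 11.4) next to chr5:28037179, which had peaks in both blood libraries.

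**Figure D3:**
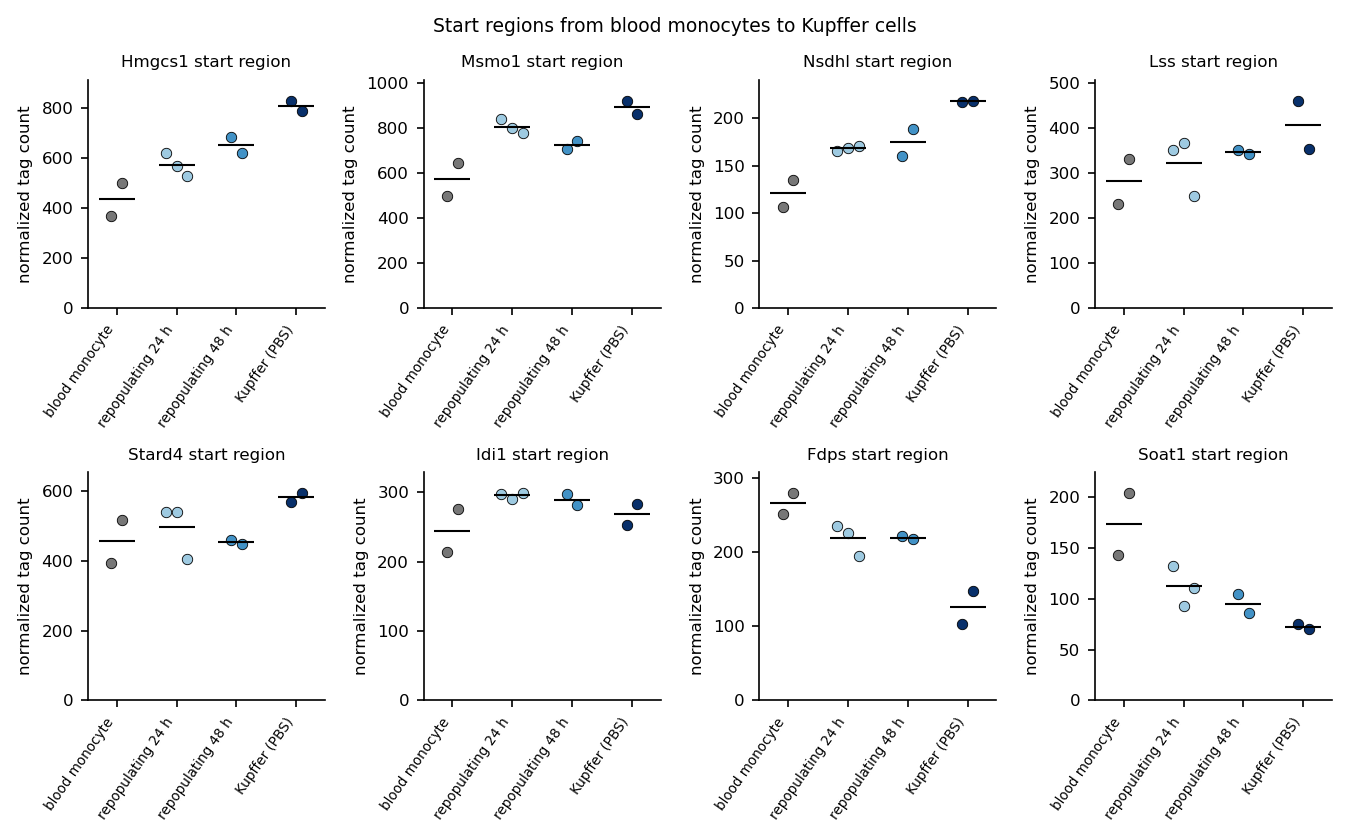
Normalised tag count (linear axis from 0) at 8 start regions in blood monocytes, cells 24 h and 48 h after toxin, and Kupffer cells given PBS; points are libraries and lines group means. Hmgcs1 group means run from 434 in blood to 809 in Kupffer cells, while Fdps and Soat1 are lowest in Kupffer cells.

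Between 24 h and 48 h few member regions passed the test. Of 59 tested, limma called 0 higher and 4 lower at 48 h, against 1.92% and 3.53% of all regions. At an unadjusted p below 0.05, 1 was higher and 19 lower. The median region stood at 0.16 before centring, and without centring 0 passed in either direction. The 4 were the inner Msmo1 region (54.0 and 76.3 against 95.5, 93.5 and 105.3; -0.77 ± 0.21, adjusted p = 0.029), the starts of Ggps1 (-0.41) and Sqle (385.2 and 396.8 against 499.0, 462.2 and 410.7; -0.39, adjusted p = 0.037), and the Msmo1 start (704.2 and 741.5 against 838.8, 800.8 and 774.8; -0.32, adjusted p = 0.039). None of the 4 held without each library in turn. The Dhcr7 region at chr7:143832332 had no peak at 24 h and 68.0 and 77.0 at 48 h, 1 of 4 member regions, of 108, with peaks at 48 h alone (background 5.09%). A Lpin1 region (15.9, 18.2 and 45.5) was the 1 of 108 with peaks at 24 h alone (background 0.609%), with a 48 h peak within 1 kb.

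Against cells at 48 h, Kupffer cells given PBS had 12 member regions higher and 6 lower of 52, with 13.7% and 12.6% of all regions. Centring took out a median shift of -0.28, and without centring 5 were higher and 14 lower. The Insig1 region at chr5:28037179 had 151.7 and 162.0 against 89.8 and 90.2 (1.08 ± 0.18, adjusted p = 7e-06). The Cyp51 region just after its start (chr5:4104355-4104581) had 250.2 and 273.2 against 186.5 and 181.9 (0.79, adjusted p = 0.00011). These 2 were the only calls that held without each library in turn, and both held without centring. The Hmgcs1 start was at 0.59 (adjusted p = 0.00098) and the Stard4 start at 0.64 (adjusted p = 0.00039). The Srebf2 start was lower with PBS, with 157.3 and 177.3 against 306.8 and 300.0 (-0.57, adjusted p = 0.0041). So was the Fdps start, with 103.3 and 147.6 against 222.2 and 217.1 (-0.54, adjusted p = 0.012). Control cells of other experiments were not as low at Srebf2. Centred log2 signal there was 1.43 and 1.39 with PBS and 1.97 and 1.86 at 48 h. It was 1.83 and 1.81 in Nr1h3 controls and 1.79 and 1.94 in cells titled Control. Without 48 h replicate 2, 5 of the 18 calls were kept. Peaks in Kupffer cells alone were found for 2 of 98 member regions, both at Soat1 (background 4.53%; 1 had a 48 h peak within 1 kb), and at 48 h alone for 13 of 98 (background 12.8%), led by the Lpin1 region at chr12:16526198 (47.1 and 63.8).

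In TIM4+ cells, the clearest difference between Nr1h3 knockouts and controls lay at the start window that Hsd17b7 shares with 3110045C21Rik. Of 51 member regions tested, 2 were higher and 3 lower in knockouts, against 4.86% and 3.91% of all regions, so the counts were small and near those shares. Of the 22 start regions, 1 was higher and 3 lower, against 6.60% and 0.884% of all tested regions over a promoter window, and without centring 0 and 1. The Hsd17b7 start had 96.4 and 161.8 in knockouts against 297.3 and 243.6 in controls (-0.79 ± 0.14, adjusted p = 2.1e-06), and without each library in turn it stayed between -1.02 and -0.57. The Cyp51 start had 42.8 and 77.8 against 120.9 and 86.5 (-0.51, adjusted p = 0.047), and the Nsdhl start, shared with Cetn2, 66.4 and 86.7 against 155.0 and 115.5 (-0.50, adjusted p = 0.028). Both knockout libraries lay below both controls at all 3 starts. The Insig1 start was higher, with 301.9 and 318.1 against 298.4 and 254.2 and no overlap (0.48, adjusted p = 0.0074), as was a Fdft1 region, with 239.4 and 292.1 against 282.3 and 214.6 (0.41, adjusted p = 0.031), where the groups overlapped. Centring had taken out a median shift of -0.31. Without centring 0 member regions were higher and 2 lower, with Hsd17b7 at -1.10 (adjusted p = 0.0064), Nsdhl at -0.81 (adjusted p = 0.09), Cyp51 at -0.81 (adjusted p = 0.1) and Insig1 at 0.17 (adjusted p = 0.88). Apart from Hsd17b7, none held without each library in turn, and Cyp51 and Nsdhl each passed in 1 of those 4 fits. The summed signal at 9 Kupffer marker starts was 85.6 to 139 in TIM4+ knockouts and 198 to 234 in controls, and its part in these calls was not tested. Of 76 member regions, 1, at Fdft1 (7.66 and 10.9), had peaks in knockouts alone (background 1.06%), and 6 in controls alone (7.69%), led by a Fdps region (25.4 and 22.4) with a knockout peak within 1 kb.

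**Figure D4:**
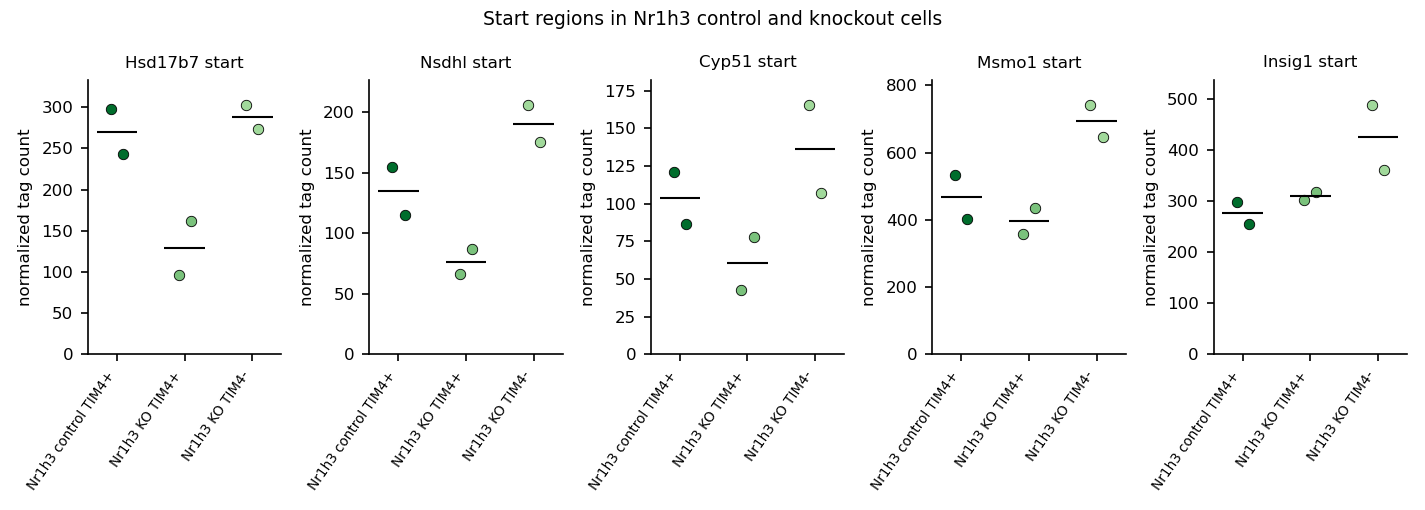
Normalised tag count (linear axis from 0) at the starts of Hsd17b7, Nsdhl, Cyp51, Msmo1 and Insig1 in Nr1h3 controls (TIM4+) and TIM4+ and TIM4- knockouts; points are libraries and lines group means. At Hsd17b7 both TIM4+ knockout libraries (96.4 and 161.8) lie below both controls and both TIM4- knockouts. The counts are not centred. Centred log2 signal at Hsd17b7 is 2.19 and 2.24 in controls, 1.13 and 1.60 in TIM4+ knockouts and 1.81 and 1.76 in TIM4- knockouts. TIM4- knockouts against controls stand at a log2 fold change of -0.31 there, which did not pass.

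In TIM4- knockouts no start region passed against the same controls, and the largest change lay inside Soat1. Of 57 tested, 3 were higher and 3 lower, against 7.03% and 6.68% of all regions. The Soat1 region 23635 bp after the start (chr1:156450510-156450877) had 11.2 and 8.72 in knockouts against 50.3 and 33.0 in controls (-2.34 ± 0.30, adjusted p = 5.7e-12), and -1.94 without centring. In TIM4+ knockouts the same region had a peak in 1 of 2 libraries (9.56), so it entered no test there. A neighbouring Soat1 region (chr1:156442074) had 22.4 and 25.1 against 45.1 and 24.4 (-0.87, adjusted p = 0.015), with overlap between the groups, and a Pmvk region was at -0.91 (adjusted p = 0.045). Higher were the Ebp region at chrX:8192810-8193083 (175.6 and 175.4 against 104.7 and 77.2; 0.56, adjusted p = 0.007), the Insig1 region at chr5:28037179 (218.0 and 197.2 against 119.7 and 111.6; 0.44, adjusted p = 0.036) and a Fdft1 region (0.39). Of the 6, the Soat1 region at chr1:156450510 held without each library in turn. A median shift of 0.40 was taken out, and without centring 10 member regions were higher and 1 lower. Summed signal at the 9 Kupffer marker starts was 66.0 to 75.6 in TIM4- knockouts and 198 to 234 in controls, and its part in these calls was not tested. With limma 0 of 22 start regions passed, and 3 were higher and 1 lower at an unadjusted p below 0.05. Peaks in knockouts alone were found for 4 of 83 member regions (background 6.6%) and in controls alone for 0 (3.5%).

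Set against each other, TIM4- and TIM4+ knockouts differed at the Nsdhl start. It had 206.2 and 175.4 in TIM4- cells against 66.4 and 86.7 in TIM4+ cells (0.56 ± 0.17, adjusted p = 0.041), the 1 call among 53 member regions, with 0 lower by limma; 4 were higher and 2 lower at an unadjusted p below 0.05. Of all regions 0.607% were higher and 1.5% lower. The median region stood at 0.75 before centring, the largest such shift of the 9 comparisons, and without centring 44 member regions were higher and 0 lower. The call was lost without any 1 of the 4 libraries (adjusted p 0.065 to 0.5), and the start window is shared with Cetn2. Hsd17b7 was at 0.45 (adjusted p = 0.12). Peaks in TIM4- knockouts alone were found for 8 of 81 member regions (background 10.9%), and in TIM4+ knockouts alone for 0 (0.559%).

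Between Kupffer cells titled Smad4KO and those titled Control, 1 of 57 member regions passed. The Soat1 region at chr1:156450510 had 11.2 and 11.2 in the libraries titled Smad4KO against 30.3 and 29.0 (-0.99 ± 0.29, adjusted p = 0.033), and 1 of the 4 fits without a library kept the call. With limma 0 member regions were higher and 1 was lower, against 1.57% and 1.5% of all regions, and 4 were higher and 3 lower at an unadjusted p below 0.05. Here the median shift was -0.34. Of 78 member regions, 1, the Ebp start (7.81 and 14.3), had peaks in the libraries titled Smad4KO alone (background 1.24%), with a peak of the other libraries within 1 kb, and 5 in those titled Control alone (6.97%), at Soat1, Scap, Pmvk, Srebf2 and Insig1. Summed Kupffer marker signal was 59.7 to 91.8 in the libraries titled Smad4KO, where Clec4f had no start peak, and 162 to 190 in those titled Control, and its part here was not tested.

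**Figure D5:**
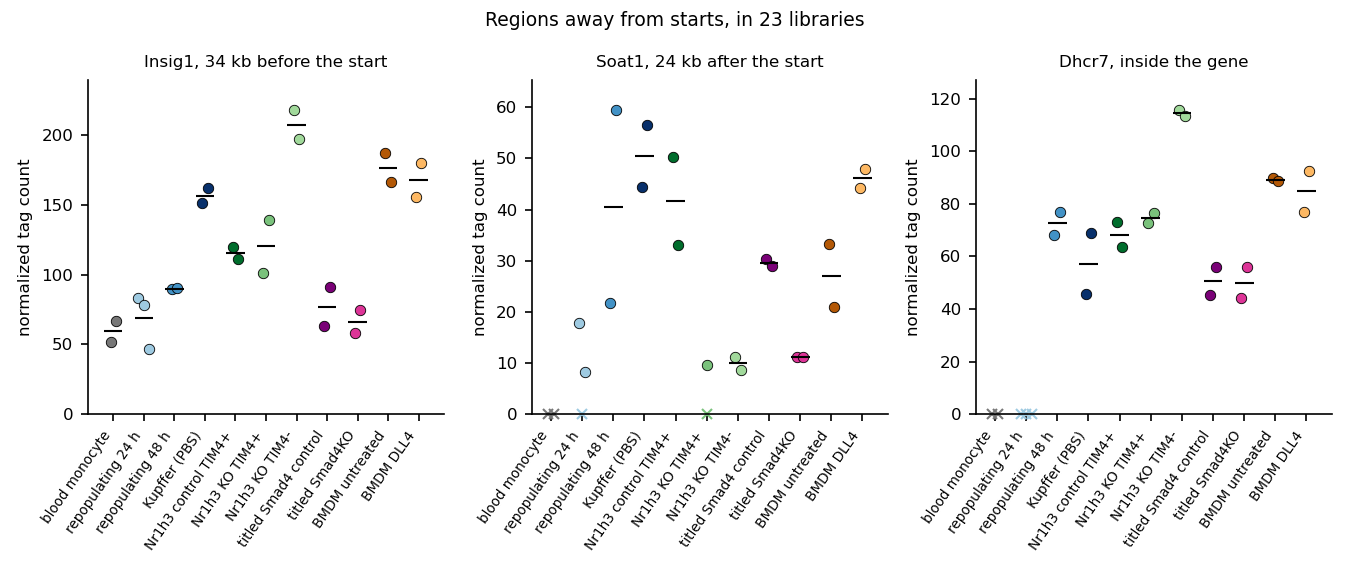
Normalised tag count (linear axis from 0) at regions of Insig1, Soat1 and Dhcr7 that lie away from the starts, in 23 libraries of 11 groups; points are libraries, lines are group means where every library has a peak, and crosses at 0 are libraries with no peak. The Soat1 region is at 8.72 to 11.2 in TIM4- knockouts and 33.0 to 50.3 in Nr1h3 controls, and the Dhcr7 region has no peak in blood or at 24 h.

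The Soat1, Insig1 and Dhcr7 regions recurred in these comparisons. The Soat1 region had no peak in blood, 17.8 and 8.17 in 2 of 3 libraries at 24 h, 21.8 and 59.4 at 48 h, 33.2 and 21.0 in untreated BMDM and 44.3 and 47.9 with DLL4. The Insig1 region had a peak in all 23 libraries. The Dhcr7 region had a peak in 18 libraries, all those outside blood and 24 h. Among the Nr1h3 libraries it had 115.5 and 113.3 in TIM4- knockouts, 72.8 and 76.4 in TIM4+ knockouts and 72.9 and 63.4 in controls. All these counts are not centred. None of the 3 Dhcr7 regions tested in TIM4- knockouts against controls passed, and none passed in TIM4- against TIM4+ knockouts. With DLL4, none of the 9 Soat1 regions tested passed.

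In BMDM, DLL4 went with higher signal at 3 of 94 member regions, and with lower signal at 0 by limma, against 2.36% and 1.52% of all regions. At an unadjusted p below 0.05, 14 were higher and 1 lower. The Sqle start had 550.8 and 525.4 with DLL4 against 412.8 and 395.0 untreated (0.38 ± 0.10, adjusted p = 0.011). The Lss start had 350.3 and 392.0 against 290.6 and 280.3 (0.34 ± 0.11, adjusted p = 0.045). An Insig2 region 20380 bp after the start (chr1:121307103-121307493) had 64.7 and 63.6 against 35.6 and 42.0 (0.68 ± 0.21, adjusted p = 0.042). All 3 were separated between groups. None of the 3 calls held without each library in turn, and quantile normalisation left 0. The median shift was 0.03. Peaks with DLL4 alone were found for 1 of 132 member regions, at Scap (13.1 and 10.3; background 2.1%), with an untreated peak within 1 kb, and in untreated cells alone for 2 of 132 (2%).

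A list of 26 other genes of cholesterol synthesis, uptake, trafficking, oxysterol formation and SREBP processing, with 219 regions, was read beside the members. In Kupffer cells against blood, 16 of its 70 tested regions were higher and 19 lower, near the 25.7% and 25.3% of all regions. At 24 h against blood it was 14 and 7 of 85 (all regions 16.7% and 9.33%), at 48 h against 24 h 3 and 4 of 85 (1.92% and 3.53%), and in Kupffer cells against 48 h 2 and 10 of 79 (13.7% and 12.6%). In Nr1h3 knockouts against controls the list gave 4 higher and 2 lower of 75 in TIM4+ cells (all regions 4.86% and 3.91%) and 4 and 4 of 82 in TIM4- cells (7.03% and 6.68%). TIM4- against TIM4+ knockouts gave 0 higher by limma and 1 lower of 77, against 0.607% and 1.5% of all regions, and 2 and 6 at an unadjusted p below 0.05. The Smad4 titles gave 1 and 0 of 72, against 1.57% and 1.5%, and 3 and 1 at an unadjusted p below 0.05. DLL4 gave 2 and 0 of 114, against 2.36% and 1.52%, and 10 and 7 at an unadjusted p below 0.05.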

How the data were processed

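The 26 members, the gene lists and the tests were chosen with earlier results of these data known. ATAC-seq peak lists of 23 libraries were read; per the submitters' processing notes the authors used Bowtie2, HOMER and mm10, whose versions are not given in the sources used here. Per the file headers, HOMER findPeaks called peaks of 200 bp in each library by itself, at a false discovery rate of 0.001 and a local fold of at least 4. The deposited normalised tag counts are a signal scaled to 10 M tags per library. The deposited fold over the local background is a ratio, used here only in a stricter peak set (at least 8).

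Peaks overlapping by at least 1 bp were merged into 155137 regions (1605886 peaks, less 1205 off the autosomes and X), and the strongest peak gave a library's value. Gene bodies, searched up to 50 kb away, came from RefSeq on GRCm38.p6, the assembly behind mm10. A start region is the strongest region over the window from 250 bases before to 50 after a start. Where no window was listed, either gene end was used.

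Signal was tested with limma 3.58.1 in R 4.3.3 (moderated test with a mean-variance trend, two-sided) on log2(normalised tag count + 1), centred on each library's median, in regions with a peak in every library of both groups. Adding 1 understates changes of weak regions, and requiring peaks in all libraries leaves out regions lost in 1 group, which are counted apart. p-values were adjusted by Benjamini-Hochberg over all regions tested, with a threshold of 0.05. The program was tested on simulated data. Named by rule were, per comparison, up to 25 called member regions by size of change, the 5 strongest regions in each group alone, every start region and up to 3 regions of other pathway genes. The alternatives were no centring, quantile normalisation, adding 10, a mean of at least 20, all libraries of an experiment in 1 fit, a replicate block, 10 kb assignment, a 100 bp overlap, the stricter peaks and leaving out each library. Replicates shared 71.2% to 78.8% of their regions. Promoter windows of Sqle, Fdft1, Fdps and Stard4 were not used here.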

Additional observations from a re-analysis of the deposited data

Results flagged for a closer look

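The start region of Nsdhl, a window shared with Cetn2, stood out as the member region called between TIM4- and TIM4+ Nr1h3 knockout cells. Against the same TIM4+ controls, TIM4+ knockouts stood at -0.50, while TIM4- knockouts stood at 0.10 and did not pass. TIM4- minus TIM4+ knockouts gave a log2 fold change of 0.56 (limma, adjusted p = 0.041), with both TIM4- libraries above both TIM4+ libraries. With no TIM4- control, this compares cells of 1 genotype and does not measure the effect of Nr1h3 loss in TIM4- cells. The call was lost in all 4 fits that left out a library (adjusted p 0.065 to 0.5), with quantile normalisation (adjusted p 0.056) and with a mean of at least 20, stricter peaks or a 100 bp overlap, at adjusted p 0.054, 0.054 and 0.051. The share of tags in peaks, 21.9% to 26.6% in TIM4+ knockouts, and the shift of the median region moved with this difference, and their part in it was not tested.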

How the results depend on the processing

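Of 93 called and named member regions, 23 kept direction and call under every alternative tried, among them the starts of Hmgcs1, Nsdhl, Fdps and Soat1 in Kupffer cells against blood, the Hsd17b7 start in TIM4+ knockouts and the Soat1 region at chr1:156450510 in TIM4- knockouts. Without centring 45 of the 93 kept the call, 46 were no longer past the threshold and 2 reversed; with quantile normalisation it was 67, 25 and 1. The reversals were Hsd17b7 at -0.05 and the Cyp51 region at chr5:4104355 at -0.00 in Kupffer cells against blood without centring, and the Msmo1 start at 0.03 for 48 h against 24 h with quantile normalisation. In TIM4- against TIM4+ knockouts, no centring also turned starts that had not passed, to 0.64 at Soat1, 0.55 at Lss, 0.63 at Ggps1, 0.60 at Srebf2, 0.62 at Fdps and 0.44 at Insig1. The cause was not tested.

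Counts of called member regions without centring moved to 8 for 24 h against blood, 0 for 48 h against 24 h, 2 for TIM4+ knockouts, 11 for TIM4- knockouts and 44 for TIM4- against TIM4+ knockouts. Over all regions this changed 7555 higher and 4228 lower to 2077 and 5808 at 24 h, 9741 and 9578 to 3802 and 11825 in Kupffer cells against blood, and 254 and 627 to 28314 and 147 in TIM4- against TIM4+ knockouts. Quantile normalisation left 1 call for 48 h against 24 h and 0 for TIM4- against TIM4+ knockouts and for DLL4. A mean of at least 20 left 3 for TIM4- knockouts and 0 for TIM4- against TIM4+, stricter peaks 3 and 0, a 100 bp overlap 0 for the latter, and adding 10 gave 2. In each group alone, 10 kb assignment left 4 regions for 24 h against blood and stricter peaks 2 for the Smad4 titles.

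Leaving out each library in turn gave 15 to 28 calls for 24 h against blood, 0 to 11 for 48 h against 24 h, 6 to 20 for Kupffer cells against 48 h, 26 to 35 against blood, 1 to 6 for TIM4+ and 2 to 9 for TIM4- knockouts, 0 to 2 between them, 0 to 1 for the Smad4 titles and 0 to 3 for DLL4. Regions in either group alone, in the same order, ran from 10 to 17, 6 to 15, 18 to 31, 36 to 41, 9 to 13, 5 to 10, 10 to 15, 6 to 11 and 8 to 12. The lone sample of a group was then assumed to vary like the others. With a replicate block, calls numbered 6 for TIM4+ and 7 for TIM4- knockouts, 2 between them and 1 for DLL4; correlations of same-numbered libraries were 0.00884, -0.00429, 0.0611 and -0.038, so the numbers do not show pairing. Depth limits weak regions, since a peak needed 8 to 11 tags.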
